A study of Mus musculus with 12 samples.

Results

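Secreted or membrane-bound regulators of blood vessel growth, 10 in all, were followed in B16F10 cells, a transplantable mouse melanoma line, treated with 2 drugs alone or together. They were chosen by name, as growth factors of the VEGF family (Vegfa, Vegfb, Vegfc, Pgf), angiopoietins and an angiopoietin-like protein (Angpt2, Angpt4, Angptl4), the co-receptor endoglin (Eng) and the thrombospondins Thbs1 and Thbs2. These are 10 of the 24421 genes in the count files, and 9 of them passed the filter for testing (at least 1 CPM, a count scaled to a library total of 1e+06, in at least 3 of 12 libraries), as did 11638 genes in all. RNA of cultured cells was sequenced in 4 groups of 3 replicates. Control cells received DMSO, the DAC group 5-aza-2'-deoxycytidine, an inhibitor of DNA methyltransferases, at 25 nM for 72 h, and the SFN group sulforaphane, an isothiocyanate that activates the transcription factor Nrf2 and inhibits histone deacetylases, for 48 h. The DAC+SFN group received 25 nM DAC for 72 h with 5 µM SFN over the last 48 h. The protocol in the labels gives the single SFN dose as 5 nM, whereas the study's methods state 5 µM, and taken by the labels the SFN and DAC+SFN groups differ in SFN dose. All groups are cultures of a single established tumour line without host vessels or immune cells, and the study's methods describe the treatments as 3 independent repeats.

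Tumours obtain a blood supply when the balance between inducers and inhibitors of vessel growth tips towards the inducers. VEGF-A is secreted by tumour cells, often under control of hypoxia-inducible factors, and acts through the receptors VEGFR1 and VEGFR2 on endothelial cells. VEGF-B and placental growth factor (Pgf) bind VEGFR1, and VEGF-C binds VEGFR3 and drives lymphatic growth. Angiopoietin-2 (Angpt2) is a context-dependent antagonist of the endothelial receptor Tie2, and Angpt4 is another Tie2 ligand. Endoglin is a co-receptor for ligands of the TGF-β family, and the thrombospondins are matrix glycoproteins that inhibit vessel growth through receptors such as Cd36 and Cd47.

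The libraries were those of melanocytic cells with endothelial markers at or near 0 counts. They held 15880957 to 27291436 counts (median 21949304.5), so that 1 CPM stood for 16 to 27 counts. All 9 melanocytic markers passed the filter and summed to 22487 to 31270 CPM per library. None of the 8 endothelial markers passed. Their sum was 0.188 to 1.15 CPM per library, with Cdh5 and Cldn5 at 0 counts in all 12 libraries. Of 6 fibroblast and pericyte markers 3 passed, Pdgfra, Pdgfrb and Cspg4 (all 6 summed to 21.6 to 32.0 CPM). Dcn, Lum and Rgs5 had 3 counts or fewer in every library. Of the 3 that passed, 1 rose and 1 fell (adjusted p below 0.05) with SFN, and likewise with DAC+SFN. Of the 9 melanocytic markers none changed with SFN, and 1 rose and 2 fell with DAC+SFN. Of 4 macrophage markers 1 passed, Cd68, which also marks lysosomes. The summed macrophage markers were 2.36 to 4.78 CPM in control and 8.27 to 11.3 CPM in DAC+SFN libraries, with Ptprc, Adgre1 and Csf1r at 3 counts or fewer in every library. Cd68 rose by 1.11 (adjusted p = 0.000729) with SFN and 1.55 (adjusted p = 1.98e-05) with DAC+SFN, and its part in the members' changes was not tested. In bulk RNA, fewer cells of a type and less RNA per cell cannot be told apart.

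The start regions of the genes are shown because DAC inhibits DNA methyltransferases and promoters can be methylated at CpG dinucleotides. The members also differ in how many of these dinucleotides lie before their starts. The windows are the 250 bases upstream of the RefSeq start on GRCm38.p6, read 5′ to 3′ on the gene's strand, in lower case with each CpG in capitals. Of the 10 members 7 had a window. Printed are 2 genes that rose with SFN (Angpt4 and Eng) and 2 VEGF genes with no call in any comparison (Vegfa and Vegfc). The first is Angpt4 at chr2:151910957-151911206 (+ strand), the second Eng at chr2:32646345-32646594 (+ strand), the third Vegfa at chr17:46032378-46032627 (- strand) and the last Vegfc at chr8:54077282-54077531 (+ strand).
Angpt4: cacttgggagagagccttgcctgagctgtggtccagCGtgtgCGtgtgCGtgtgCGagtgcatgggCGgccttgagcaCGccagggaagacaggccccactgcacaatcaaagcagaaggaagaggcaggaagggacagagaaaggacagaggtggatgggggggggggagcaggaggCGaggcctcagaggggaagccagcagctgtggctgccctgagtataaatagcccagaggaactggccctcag
Eng: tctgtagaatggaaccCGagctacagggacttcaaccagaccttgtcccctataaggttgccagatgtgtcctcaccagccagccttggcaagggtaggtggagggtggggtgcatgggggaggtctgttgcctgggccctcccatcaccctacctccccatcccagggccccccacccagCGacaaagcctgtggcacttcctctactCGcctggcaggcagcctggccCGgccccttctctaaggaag
Vegfa: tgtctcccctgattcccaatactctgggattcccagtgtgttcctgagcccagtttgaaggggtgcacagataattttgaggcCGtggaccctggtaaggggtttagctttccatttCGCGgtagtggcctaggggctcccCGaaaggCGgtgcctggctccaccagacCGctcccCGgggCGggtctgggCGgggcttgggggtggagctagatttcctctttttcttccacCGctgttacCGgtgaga
Vegfc: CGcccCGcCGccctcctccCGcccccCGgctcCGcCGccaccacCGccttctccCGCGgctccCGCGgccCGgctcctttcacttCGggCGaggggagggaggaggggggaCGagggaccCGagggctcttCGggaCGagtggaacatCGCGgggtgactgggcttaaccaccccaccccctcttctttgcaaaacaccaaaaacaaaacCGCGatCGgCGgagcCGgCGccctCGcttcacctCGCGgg

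CpG density ranged widely over these windows. Vegfc had 30 CpGs and Vegfb 26, whereas Eng had 4 and Thbs2 had 3. Over all 32851 windows of the same length the median was 6, with quartiles of 2 and 16. Angpt4 had 7, and Vegfa and Pgf, which each have a pair of RefSeq start entries, had 11 and 7 and 20 and 7, respectively. Motifs were each searched on both strands. The GC box GGGCGG, present in 32.7% of all windows, had 4 matches in Vegfb, 2 each in Vegfc, the first Pgf window and the first Vegfa window, and 1 each in Angpt4 and the second Vegfa window. The hypoxia response core ACGTG (16.6% of all windows) matched only in the second Vegfa window, and the antioxidant response core TGACNNNGC (10.2%) matched only in Vegfc and the first Pgf window. The AP-1 motif TGANTCA (6.75%) and the E-box CACGTG (6.02%), whose letters contain ACGTG, had no match in the members' windows. DNA methylation and factor binding were not measured, and a match is a description of these letters only.

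Levels between genes were compared per kb of exon. In control cells Eng was highest, at 90.5 CPM per kb, followed by Vegfb at 42.9 and Vegfa at 22.4. Thbs1 (14.4), Angpt2 (10.4) and Vegfc (6.60) came next, then Pgf at 1.37. Thbs2 (0.156), Angpt4 (0.139) and Angptl4 (0.0943) closed the order. The ranges over the 3 control libraries separated Eng from Vegfb and Vegfb from Vegfa. Thbs1 overlapped Vegfa, Angpt2 and Vegfc, Angpt2 also overlapped Vegfa, and the 3 lowest genes overlapped one another. The melanoma cells thus contained transcripts of the co-receptor endoglin at a higher level per kb than of any of the ligands listed here.

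**Figure D1:**
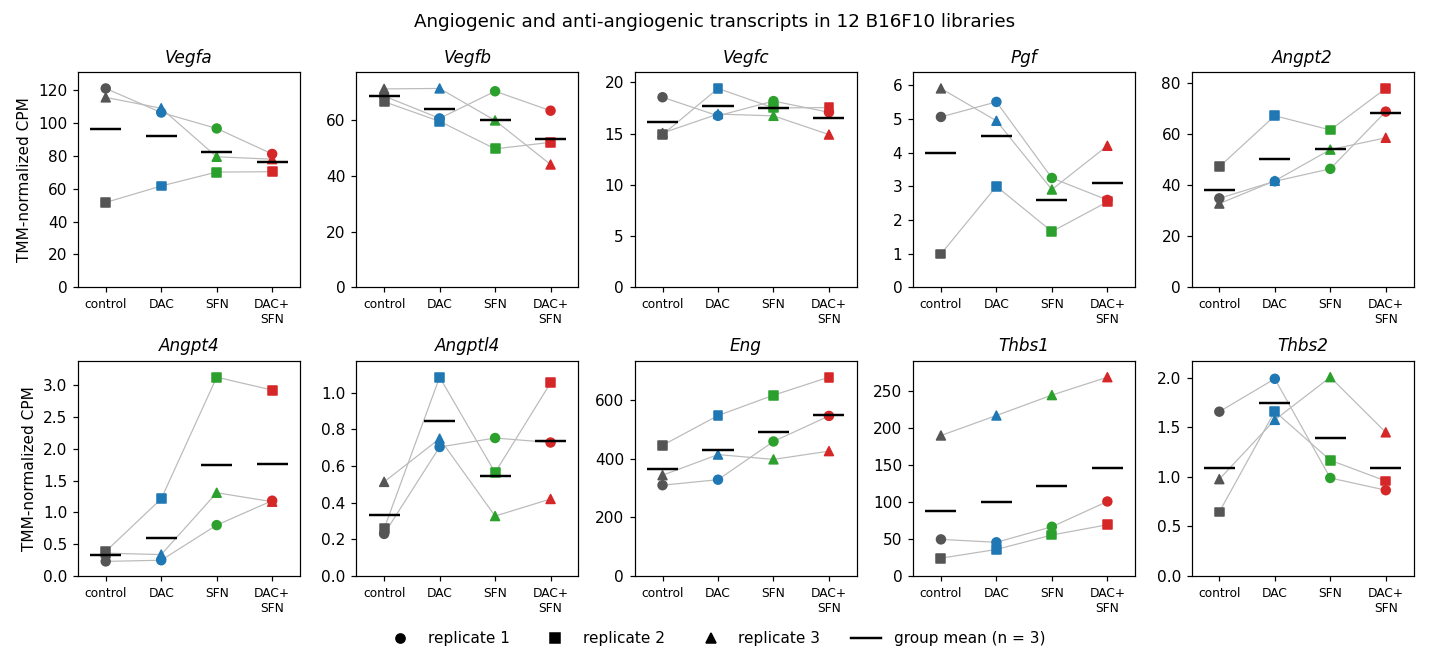
TMM-normalized CPM of the 10 genes (vertical axes, linear from 0) in control, DAC, SFN and DAC+SFN libraries, with 1 point per library, its replicate number given by the marker, thin lines joining libraries of the same replicate number, and the group mean as a bar. Angpt4 libraries with SFN, alone or combined, lie above all control libraries, whereas for Vegfa the replicate 2 library is the lowest point of each group.

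DAC alone was compared with control to ask whether the demethylating drug changed these genes. None of the 9 tested members changed (adjusted p below 0.05 over all tested genes), in a comparison where 21 of 11638 genes (0.18%) did. Of all genes 0.0344% also exceeded a 2-fold change, and 1170 had an unadjusted p below 0.05. The members' median log2 fold change was 0.22, and that of all tested genes was 0.0049. On the log2 scale Thbs2 differed from control by 0.66 ± 0.33 (SE, adjusted p of 0.540), Angpt2 by 0.37 ± 0.10 (SE, adjusted p of 0.156) and Angpt4 by 0.78 ± 0.43 (SE, adjusted p of 0.569). The 4 VEGF family genes lay between -0.11 and 0.26. Angpt2 passed the threshold under DESeq2 (adjusted p = 0.0468), without the filter on low counts (0.0162) and in a fit of these groups alone (0.00125), and Eng did so in the last.

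SFN alone raised 4 of 9 tested members, Angpt2, Angpt4, Eng and Thbs1, and lowered none. Of all tested genes 13.9% changed in this comparison, 8.27% upwards and 5.65% downwards. The median log2 fold change was 0.35 over the members and 0.0040 over all tested genes. Angpt4 alone also exceeded a 2-fold change, beside 1.28% of all genes. It reached 1 CPM in no control library and entered the test only through treated libraries, so its call is a description and not support for the counts. The other 3 genes that rose had 1 CPM or more in all 12 libraries. The combination raised the same 4 genes and lowered Vegfb, so that 5 of 9 members changed against 31.6% of all tested genes (17% upwards and 14.7% downwards). Angpt4 was again the only one beyond 2-fold, with 2.66% of all genes. Its call is here too a description and not support for the count. The members' median was 0.031, beside 0.0078 over all tested genes. The SFN and DAC+SFN comparisons share the control libraries.

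**Figure D2:**
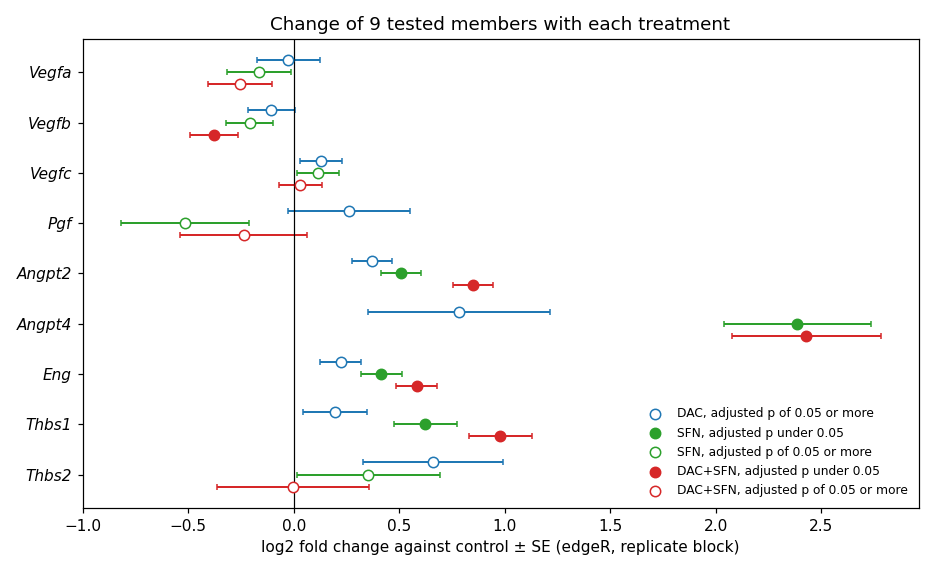
edgeR log2 fold changes of the 9 tested members (horizontal axis) with bars of 1 SE for each comparison, filled where the adjusted p was below 0.05. Angpt4 has the largest values, 2.39 with SFN and 2.43 with DAC+SFN, and all filled points for SFN alone lie to the right of 0.

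Angpt4 changed most among the members, from very few reads. The gene lies at chr2:151911210-151945337 (+ strand, GRCm38). Its CPM was 0.230, 0.387 and 0.360 in control replicates 1 to 3, which stands for 5, 9 and 7 counts. DAC libraries had 0.248, 1.21 and 0.337, SFN libraries 0.800, 3.12 and 1.31 and DAC+SFN libraries 1.18, 2.92 and 1.17 CPM. Every library with SFN was higher than every control library, while the DAC libraries overlapped both. The log2 fold change was 2.39 ± 0.35 (SE, adjusted p of 0.000434) with SFN and 2.43 ± 0.35 (SE, adjusted p of 0.000166) with DAC+SFN, or 5.23-fold and 5.39-fold. DAC+SFN exceeded DAC by 1.65 ± 0.32 (SE, adjusted p of 0.00344), and it differed from SFN by 0.042 ± 0.26 (SE, adjusted p of 0.957). Angpt4 reached 1 CPM in 6 libraries, none of them control, and so could be tested only because of the treated groups. Without the replicate block the SFN and DAC+SFN against DAC calls were lost (adjusted p = 0.148 and 0.225), and without replicate number 2 the SFN call was lost at a log2 fold change of 1.82 (adjusted p = 0.0534). The call against DAC was lost without replicate number 1 (1.46, adjusted p = 0.0803).

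Angpt2 rose in smaller steps at a level far above that of Angpt4. It lies at chr8:18690263-18741562 (- strand). Its CPM was 34.9, 47.2 and 32.8 in control, 41.6, 67.2 and 41.7 in DAC, 46.4, 61.7 and 54.0 in SFN and 68.9, 78.0 and 58.6 in DAC+SFN replicates 1 to 3. All DAC+SFN libraries were above all control libraries, the DAC and SFN groups overlapped control, and replicate 2 was the highest in each group. Means were 38.3 ± 7.80 in control and 68.5 ± 9.68 CPM (SD, n = 3) in DAC+SFN. The log2 fold change was 0.51 ± 0.095 (SE, adjusted p of 0.00255) with SFN and 0.85 ± 0.095 (SE, adjusted p of 2.08e-05) with DAC+SFN, higher in 3 of 3 replicates for both. DAC+SFN exceeded DAC by 0.48 ± 0.093 (SE, adjusted p of 0.00368). It exceeded SFN by 0.34 ± 0.092 (SE, adjusted p of 0.0716), which did not pass, although it did under DESeq2 (0.0263), without the filter (0.0169) and in a fit of these groups alone (0.00256). Both calls against control were kept with each of the 6 libraries concerned left out, and without the replicate block the SFN call was lost (adjusted p = 0.270). The call against DAC was lost without replicate number 1 (0.35, adjusted p = 0.139) and without the block (0.273).

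Angpt2 lies inside the span of Mcph1, a gene of chromosome condensation on the opposite strand (chr8:18595131-18803189). The library kit keeps strand, but the sources used here do not say whether the counting used it. Mcph1 moved the other way, with a log2 fold change of -0.28 (adjusted p = 0.0272) with SFN and -0.41 (adjusted p = 0.00139) with DAC+SFN. Its mean fell from 32.3 ± 0.946 to 24.2 ± 1.53 CPM (SD, n = 3).

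Eng, the member with the most counts, rose with SFN and with DAC+SFN in groups that overlapped. The gene lies at chr2:32646595-32682669 (+ strand), and its 3′ end overlaps Fpgs on the opposite strand, whose log2 fold change with DAC+SFN was 0.15 (adjusted p = 0.390). The CPM of Eng was 309.9, 446 and 344 in control, 329, 547 and 414 in DAC, 459, 617 and 398 in SFN and 546, 678 and 426 in DAC+SFN. The groups overlapped, with replicate 2 highest in each, but within a replicate number each SFN and DAC+SFN library exceeded its control. The log2 fold change was 0.42 ± 0.10 (SE, adjusted p of 0.0101) with SFN, 0.58 ± 0.10 (SE, adjusted p of 0.000460) with DAC+SFN and 0.36 ± 0.10 (SE, adjusted p of 0.0205) for DAC+SFN against DAC. The combination differed from SFN by 0.17 ± 0.10 (SE, adjusted p of 0.388). The SFN call was lost in 3 of 6 fits that left out 1 library each and without replicate number 2 (0.38, adjusted p = 0.170), and the call against DAC in 4 of 6 and without replicate number 1 (0.18, adjusted p = 0.327) or 2 (0.37, adjusted p = 0.126). Without the replicate block none of the 3 calls remained (adjusted p = 0.398, 0.111 and 0.449).

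Thbs1, a matrix inhibitor of angiogenesis, rose with SFN on top of a wide spread between replicate numbers. It lies at chr2:118111876-118127133 (+ strand), where a lincRNA on the opposite strand overlaps it that was not analysed here. Its CPM was 49.4, 24.1 and 189 in control, 45.5, 35.9 and 216 in DAC, 66.4, 55.3 and 244 in SFN and 101, 69.2 and 268 in DAC+SFN replicates 1 to 3. Replicate 3 was far above the other two in every group and replicate 2 was the lowest, so the groups overlapped throughout. Within replicate numbers the SFN libraries were higher than control by 0.43, 1.20 and 0.36 on the log2 scale, and the DAC+SFN libraries by 1.02, 1.52 and 0.50. With the replicate number as a block the log2 fold change was 0.62 ± 0.15 (SE, adjusted p of 0.0124) with SFN, 0.98 ± 0.15 (SE, adjusted p of 0.000252) with DAC+SFN and 0.79 ± 0.15 (SE, adjusted p of 0.00320) for DAC+SFN against DAC. Without the block these calls were all lost (adjusted p = 0.844, 0.621 and 0.793). Without replicate number 2 the SFN value was 0.39 (adjusted p = 0.198). The call against DAC was lost without replicate number 1 (0.61, adjusted p = 0.135). The SFN call was also lost without control replicate 2 (0.0714) or SFN replicate 2 (0.0709). DAC+SFN exceeded SFN by 0.36 ± 0.15 (SE, adjusted p of 0.216), higher in 3 of 3 replicates. That difference did not pass, although it did in 1 of 6 fits that left out 1 library each.

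Vegfb fell with DAC+SFN compared to control, and no other member fell in any comparison. It lies at chr19:6982473-6987651 (- strand). Its CPM was 68.7, 66.6 and 71.2 in control, 60.7, 59.6 and 71.4 in DAC, 70.4, 49.7 and 59.9 in SFN and 63.4, 52.1 and 44.1 in DAC+SFN. The 3 DAC+SFN libraries were below the 3 control libraries, whereas DAC and SFN overlapped control. The log2 fold change was -0.38 ± 0.11 (SE, adjusted p of 0.0191) with DAC+SFN, -0.21 ± 0.11 (SE, adjusted p of 0.230) with SFN and -0.11 ± 0.11 (SE, adjusted p of 0.796) with DAC, and the interaction of the drugs was -0.061 ± 0.16 (SE, adjusted p of 0.994). DAC+SFN and SFN differed by -0.17 ± 0.11 (SE, adjusted p of 0.471). The DAC+SFN call was lost without control replicate 2 (adjusted p = 0.0897), control replicate 3 (0.0534) or DAC+SFN replicate 3 (0.0667), and without the replicate block (0.107). With whole replicate numbers left out the adjusted p reached 0.0944, so the call was lost there too.

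Vegfa did not pass the test in any comparison, and its direction differed between replicate numbers. It lies at chr17:46016993-46032369 (- strand). Its CPM was 121, 51.7 and 116 in control, 106, 61.7 and 109 in DAC, 96.7, 70.2 and 79.5 in SFN and 81.2, 70.4 and 78.0 in DAC+SFN replicates 1 to 3. Replicates 1 and 3 were lower with SFN than in control and replicate 2 was higher. Per replicate, SFN libraries differed from control by -0.32, 0.44 and -0.54 on the log2 scale, and DAC+SFN libraries by -0.58, 0.45 and -0.57. The fitted values were -0.16 ± 0.15 (SE, adjusted p of 0.511) and -0.25 ± 0.15 (SE, adjusted p of 0.220), respectively. Without replicate number 2 they were -0.44 (adjusted p = 0.0204) and -0.58 (0.00213), and DAC+SFN was below DAC by -0.45 (0.0132). The DAC+SFN value also passed without control replicate 2 (-0.49, adjusted p = 0.0113) or DAC+SFN replicate 2 (-0.45, 0.0378) alone. In the study's cytokine array, VEGF, angiopoietin-2 and CD105 (endoglin) were reported higher in supernatants of combination-treated than of control cells. Angpt2 and Eng RNA also rose with DAC+SFN, whereas the fitted Vegfa value of -0.25 did not pass. How RNA and secreted protein relate here was not tested.

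Pgf, like Vegfa, did not pass in any comparison and was lowest in replicate 2. It lies at chr12:85166635-85177790 (- strand). Its CPM was 5.06, 0.990 and 5.91 in control, 5.51, 3.0 and 4.94 in DAC, 3.25, 1.66 and 2.90 in SFN and 2.59, 2.54 and 4.20 in DAC+SFN. The groups overlapped in every comparison. The log2 fold change was -0.52 ± 0.30 (SE, adjusted p of 0.280) with SFN and -0.24 ± 0.30 (SE, adjusted p of 0.582) with DAC+SFN. Without control replicate 2 the SFN value was -0.89 (adjusted p = 0.0257).

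Vegfc was the steadiest member, between 14.9 and 19.4 CPM in all 12 libraries. It lies at chr8:54077606-54187096 (+ strand). Compared to control it differed by 0.13 ± 0.10 (SE, adjusted p of 0.720) in DAC, 0.11 ± 0.10 (SE, adjusted p of 0.488) in SFN and 0.031 ± 0.10 (SE, adjusted p of 0.847) in DAC+SFN on the log2 scale. The groups overlapped in each of these.

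Thbs2 and Angptl4 were at the edge of detection. Thbs2 (chr17:14665500-14694235, - strand) had 1.66, 0.645 and 0.976 CPM in control, 1.99, 1.66 and 1.57 in DAC, 0.988, 1.17 and 2.00 in SFN and 0.865, 0.958 and 1.45 in DAC+SFN. The DAC+SFN libraries were all below the DAC libraries, but the difference of -0.66 ± 0.33 (SE, adjusted p of 0.195) did not pass. Its log2 fold change against control was 0.35 ± 0.34 (SE, adjusted p of 0.531) with SFN and -0.0038 ± 0.36 (SE, adjusted p of 0.996) with DAC+SFN. Angptl4, a secreted inhibitor of lipoprotein lipase (chr17:33773750-33781830, - strand), had 5, 6 and 10 counts in control, 17, 17 and 20 in DAC, 16, 15 and 8 in SFN and 16, 22 and 9 in DAC+SFN replicates 1 to 3. The DAC libraries were above all control libraries, but only 2 libraries reached 1 CPM and the gene was not tested with the others. In a fit of 17403 genes without the filter the log2 difference from control was 1.33 ± 0.49 in DAC (SE, adjusted p of 0.299), 0.69 in SFN (0.521) and 1.10 in DAC+SFN (0.122).

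The combination was also compared with each drug. Against DAC, 4 of 9 members rose (Angpt2, Angpt4, Eng and Thbs1) and none fell, while 16.1% of all tested genes changed, 9.55% upwards and 6.6% downwards. Without replicate number 1 none of the 4 calls remained, and without the replicate block none did. Of the 4 genes Angpt4 alone exceeded 2-fold, beside 0.928% of all genes. It reached 1 CPM in 1 DAC and 3 DAC+SFN libraries, so its call is again a description and not support for the count. Against SFN, no member changed, while 187 genes (1.61%, 0.937% upwards and 0.67% downwards) did and 2072 had an unadjusted p below 0.05. The interaction of DAC and SFN, which asks whether the DAC effect depended on SFN, was called for no member and for no gene (0%). By edgeR 683 genes had an unadjusted interaction p below 0.05, and the lowest adjusted p was 0.748. The members' interaction values ranged from -1.02 for Thbs2 to 0.16 for Thbs1. The standard errors were highest for Angpt4 (0.50, at a value of -0.74) and Thbs2 (0.47), and these values do not show that the drugs acted independently on these genes.

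Of 9 tested members, 6 differed between replicate numbers, in a test where 33.9% of all genes did. The library numbers in the labels run with the replicate number, so a library batch and a culture repeat cannot be told apart. Vegfa (adjusted p = 0.00376), Pgf (0.0105) and Thbs1 (3.32e-08) were lowest in replicate 2 in all 4 groups. Angpt2 (0.000923), Angpt4 (0.000687) and Eng (0.000367) were highest there in all 4 groups. Vegfb, Vegfc and Thbs2 did not pass.

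**Figure D3:**
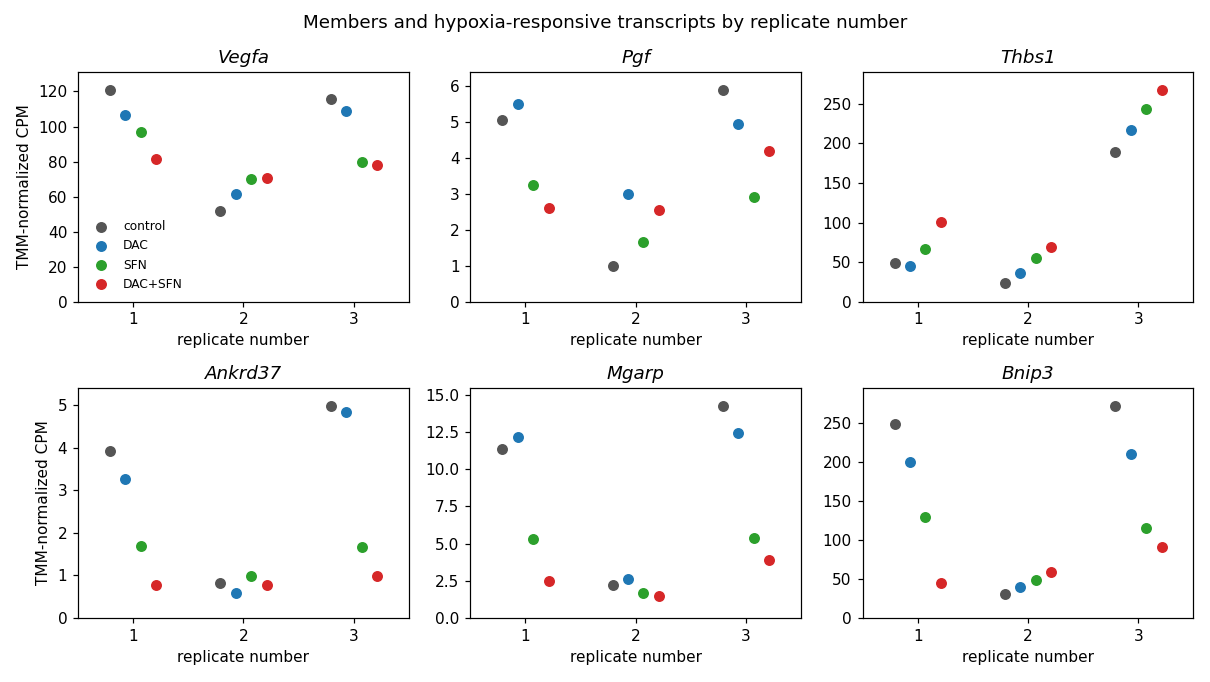
TMM-normalized CPM (vertical axes, linear from 0) against replicate number for the members Vegfa, Pgf and Thbs1 and the hypoxia-responsive genes Ankrd37, Mgarp and Bnip3, with 1 point per library coloured by group. Bnip3 was at 248, 30.5 and 272 CPM in control replicates 1, 2 and 3, and Vegfa is also lowest in replicate 2.

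Hypoxia regulators and markers moved with the replicate number beside Vegfa. Of 16 tested genes of this list 13 differed between replicate numbers and 9 were lowest in replicate 2 in every group. Among the 9 were Ndrg1, the mitochondrial protein Mgarp and the HIF target Ankrd37. The pattern was not particular to this list. Of all tested genes 33.9% differed between replicate numbers, and the share lowest in replicate 2 in every group is not given here. Of 17 tested endoglin and TGF-β genes 10 differed and 7 were lowest there. Of 11 other angiogenic ligands 9 differed, 1 was lowest and 2 were highest there. Bnip3, a HIF target in mitophagy, had 248, 30.5 and 272 CPM in control, 199, 40.0 and 209.6 in DAC, 129.8, 48.3 and 115 in SFN and 44.6, 58.3 and 90.7 in DAC+SFN replicates 1 to 3. The control and DAC libraries of replicate 2 were far below those of replicates 1 and 3, whereas with DAC+SFN replicate 1 was the lowest. The glucose transporter Slc2a1 had 129, 60.8 and 121 CPM in control and 79.1, 79.9 and 80.7 in DAC+SFN. Mgarp had 11.4, 2.24 and 14.3 CPM in control and 2.50, 1.48 and 3.92 in DAC+SFN. Their part in the Vegfa and Pgf values was not tested.

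In this hypoxia list 3 of 16 genes fell and none rose with SFN, and 6 fell with DAC+SFN. Of all tested genes 5.65% fell with SFN and 14.7% with DAC+SFN, and 8.27% and 17% rose, which are also the shares beside which the counts of the other lists stand. With SFN these were Ndrg1 (-0.81, adjusted p = 1.70e-05), Epas1, which encodes HIF-2α (-0.54, adjusted p = 0.00262), and Mgarp (-1.08, adjusted p = 0.00334). With DAC+SFN the values were -0.90 (adjusted p = 3.12e-06), -0.65 (adjusted p = 0.000352) and -1.71 (adjusted p = 8.31e-05), and that of Ankrd37 was -1.83 (adjusted p = 0.00277). The list's median log2 fold change was -0.25 with SFN and -0.38 with DAC+SFN, beside 0.0040 and 0.0078 over all tested genes. With DAC alone no gene of this list or of the other lists described here was called, in a comparison where 0.18% of all tested genes were, so that lists of this size would hold few or no calls at that share.

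**Figure D4:**
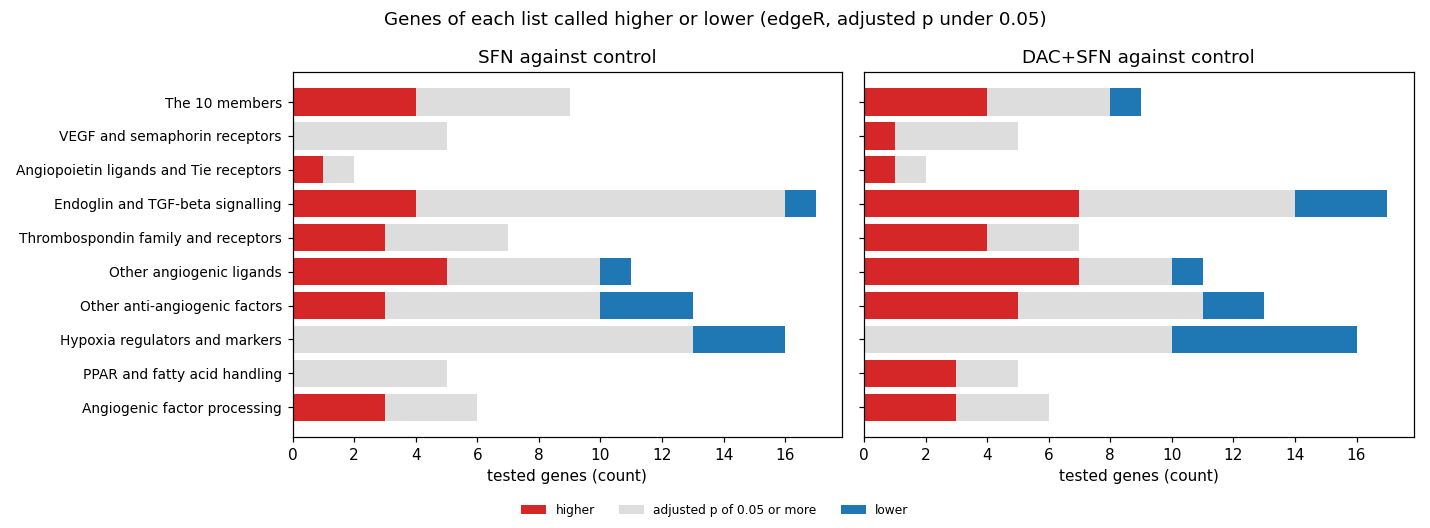
Number of tested genes of each list that rose or fell (adjusted p below 0.05) with SFN and with DAC+SFN compared to control. Among the hypoxia genes 3 and 6 of 16 fell and none rose, and among the other angiogenic ligands 5 and 7 of 11 rose.

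The receptor tyrosine kinases for VEGF ligands and angiopoietins had low or no counts. Flt4 (VEGFR3) had 13 to 46 counts per library and passed the filter, with a log2 fold change of -0.17 (adjusted p = 0.750) for SFN and -0.57 (adjusted p = 0.177) for DAC+SFN. Flt1 (VEGFR1) had 2 counts or fewer and Kdr (VEGFR2) 5 or fewer in every library, and the angiopoietin receptors Tek and Tie1 had 3 or fewer. Of 7 VEGF and semaphorin receptors 5 were tested. None changed with SFN, and 1 rose with DAC+SFN, beside 13.9% and 31.6% of all tested genes that changed. It was the VEGF and semaphorin co-receptor Nrp1 (0.22, adjusted p = 0.0359). The list's median log2 fold change was 0.0022 and -0.019, respectively. Of 8 angiopoietin ligands and Tie receptors 2 were tested, and Angptl2 rose with SFN (0.50, adjusted p = 0.00138) and DAC+SFN (0.61, adjusted p = 0.000116). Angpt1, the Tie2 agonist, had 13 counts or fewer in every library.

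Genes of endoglin and TGF-β signalling changed in both directions. With SFN 4 of 17 tested genes rose and 1 fell, and with DAC+SFN 7 rose and 3 fell. Id1, a target of BMP and endoglin signalling, rose with SFN (1.68, adjusted p = 0.000335) and DAC+SFN (1.99, adjusted p = 3.40e-05). The ligand Tgfb3 (0.56, adjusted p = 0.00104) and the receptor Tgfbr2 (0.26, adjusted p = 0.0124) also rose with SFN. The genes that fell with DAC+SFN, which are named after their values were seen, were the endoglin partner Acvrl1 (-0.27, adjusted p = 0.0227), the receptor Tgfbr1 (-0.24, adjusted p = 0.0260) and Id2 (-0.43, adjusted p = 0.00355). The list's median was 0.10 with SFN and 0.17 with DAC+SFN. The endothelial ligands Gdf2 and Bmp10 had 2 counts or fewer in every library.

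In the thrombospondin family and its receptors, 3 of 7 tested genes rose with SFN and 4 with DAC+SFN, and none fell. The integrin subunit Itgav rose by 0.37 (adjusted p = 0.000605) and 0.48 (adjusted p = 3.21e-05), respectively. Thbs3 rose by 0.41 (adjusted p = 0.00476) and 0.55 (adjusted p = 0.000226), and the heparan sulfate proteoglycan Sdc1 by 0.41 (adjusted p = 0.00347) and 0.40 (adjusted p = 0.00207). The list's median was 0.26 and 0.40. Cd36, the receptor for the anti-angiogenic thrombospondin repeats, had 4 counts or fewer in every library.

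Genes that rose were found among other inducers and among other inhibitors of vessel growth. Of 11 tested angiogenic ligands outside the 10 genes, 5 rose and 1 fell with SFN, and 7 rose and 1 fell with DAC+SFN. Their median log2 fold change was 0.63 and 0.89, respectively. The platelet-derived growth factor subunit Pdgfa rose by 1.17 (adjusted p = 0.000106) and 1.35 (adjusted p = 1.40e-05), and the EGF receptor ligand Hbegf by 1.05 (adjusted p = 0.000354) and 1.08 (adjusted p = 0.000123). The matricellular factor Ctgf rose by 1.29 (adjusted p = 0.000151) with DAC+SFN. The gene that fell, named after its values were seen, was Apln, a peptide ligand for endothelial cells (-0.99, adjusted p = 0.0225, and -1.49, adjusted p = 0.00137, respectively).

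Of 13 tested anti-angiogenic factors outside the 10 genes, 3 rose and 3 fell with SFN, and 5 rose and 2 fell with DAC+SFN. Their median was 0.0012 and 0.26, respectively. Sparc, a matrix protein that restrains VEGF and PDGF signals, rose by 0.81 (adjusted p = 4.88e-05) and 1.03 (adjusted p = 2.95e-06). The protease Adamts1 rose by 0.39 (adjusted p = 0.00774) and 0.61 (adjusted p = 0.000146), and the metalloproteinase inhibitor Timp2 by 0.23 (adjusted p = 0.00840) and 0.31 (adjusted p = 0.000435). Vasohibin-2 (Vash2), which was listed with the inhibitors although it is also known to promote vessel growth, fell by -0.83 (adjusted p = 0.00492) with SFN. The interferon-induced chemokine Cxcl10 rose with DAC+SFN compared to control (1.01, adjusted p = 5.52e-05) and compared to SFN (1.05, adjusted p = 0.00345).

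For the members that changed, the tested genes with the most similar profile were found by Pearson's correlation over 12 libraries of log2 CPM, after the replicate means were removed. The libraries are shared by all genes and the values are descriptive. Thbs1 was most like the corepressor Tle3 (r = 0.995), the transcription factor Runx1 (0.991) and Tns1 (0.988). Eng was most like Def6 (0.987), Nomo1 (0.985) and the p53 target Phlda3 (0.983). Angpt4 was most like Car6 (0.986), the chromatin protein Hmga2 (0.981) and Tecrl (0.977). Angpt2 was most like Ei24 (0.980), the imprinted gene Mest (0.979) and Acpp (0.975), and Vegfb most like Plekhj1 (0.961), Csnk2b (0.959) and Ccdc101 (0.957).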

How the data were processed

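The deposited files hold raw counts per gene symbol for 12 libraries of polyadenylated RNA. According to the labels and the study's methods, the authors checked single-end reads with FastQC (0.11.7), trimmed them with Trimmomatic (0.38), aligned them to mm10 with TopHat2 (2.1.1) and counted them per gene with HTSeq, keeping uniquely aligned reads. The annotation and strand setting of the counting are not given in the sources used here. No value was normalized or filtered by the authors in these deposited counts.

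Counts were analysed with edgeR (4.0.16) in R (4.3.3). TMM scaling, the filter of 1 CPM or more in at least 3 libraries, the quasi-likelihood test and a batch correction follow the study's methods. Fitting all 12 libraries in 1 model of 4 group means, with the replicate number as a block, was a choice made here. The study also required a fold change above 2. At that threshold 4 genes passed here with DAC, 149 with SFN and 310 with DAC+SFN. These are fewer than the study reports for DAC and more for the other comparisons. P-values were two-sided and adjusted by Benjamini-Hochberg over the 11638 tested genes, and a gene was called changed at an adjusted p below 0.05. CPM values are TMM-normalized. Per-kb values used exon lengths of GENCODE M21 on GRCm38. The fit was tested on simulated data. The replicate numbers paired the libraries: in 18 pairs of libraries with the same number, deviations from the group means correlated at 0.544 on average (0.270 to 0.732). No 2 replicates agreed within sampling noise (chi-square per gene 13.6 to 37.5). The members and lists were chosen with earlier results of these data known. Genes named besides the members were, per list and comparison, up to 4 with the smallest adjusted p below 0.05, hypoxia genes that varied with the replicate number, and the 3 genes most correlated with each changed member. Alternatives were DESeq2 (1.42.0), its size factors, another edgeR fit, other filters, no block, fits of the compared groups only, and each library or replicate number left out. Protein sequences were not analysed here. The values of 1 gene of the TGF-β list are not reported here.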

Additional observations from a re-analysis of the deposited data

Results flagged for a closer look

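Thbs2 had opposite DAC effects with and without SFN in all 3 replicates. DAC libraries exceeded control libraries by 0.25, 1.25 and 0.64 on the log2 scale, whereas DAC+SFN libraries differed from SFN libraries by -0.18, -0.26 and -0.45, and the mean effects differed by 1.01. By edgeR's quasi-likelihood test the interaction was -1.02 ± 0.47 (SE, adjusted p of 0.852), which did not pass. Thbs2 had 15 to 49 counts per library.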

How the results depend on the processing

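Angpt2, Angpt4, Eng, Thbs1 and Vegfb kept their calls under DESeq2, DESeq2's size factors, another edgeR fit and no filter on low counts. Eng against DAC was lost in the fit of these groups alone (0.36, adjusted p = 0.0680). With at least 10 counts in every library Angpt4 dropped out, and it gave no value. Without the replicate block 0 members changed with SFN (4 with it), 2 with DAC+SFN (Angpt2 and Angpt4, 5 with it) and 0 against DAC (4 with it). A fold change above 2 besides left 1 member in each of these comparisons. With DAC, where 0 changed, 1 did under DESeq2, 1 without the filter and 2 in fits of the groups compared. Against SFN, where 0 changed, the counts were 1, 1 and 3. Leaving out single libraries or replicate numbers gave 2 to 4 changed members with SFN, 4 to 6 with DAC+SFN, 0 to 4 against DAC, 0 to 2 against SFN and 1 to 7 that differed between replicate numbers. Values near 0 changed sign: Pgf's interaction was -0.015 under DESeq2, Angpt4 against SFN was -0.0087 without the replicate block, and Thbs2 with DAC+SFN was 0.00073 under DESeq2 and 0.010 in the fit of these groups. With single libraries or replicate numbers left out, the log2 values that changed sign ranged as follows. With DAC they were -0.24 to 0.11 for Vegfa, -0.23 to 0.0097 for Vegfb and -0.090 to 0.59 for Pgf. With SFN they were -0.44 to 0.017 for Vegfa and -0.046 to 0.95 for Thbs2. For DAC+SFN against SFN they were -0.30 to 0.043 for Vegfa and -0.12 to 0.16 for Angpt4. For the interaction they were -0.28 to 0.15 for Vegfa, -0.21 to 0.13 for Vegfb, -0.46 to 0.37 for Pgf, -0.20 to 0.087 for Angpt2, -1.10 to 0.16 for Angpt4, -0.18 to 0.053 for Eng and -0.11 to 0.36 for Thbs1. With DAC+SFN they were -0.079 to 0.13 for Vegfc, -0.70 to 0.15 for Pgf and -0.32 to 0.57 for Thbs2. The cause of these changes was not tested. Angpt4, Angptl4 and Thbs2 had at most 83, 22 and 49 counts in any library, and 3 replicates a group limit the smaller differences.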

Other observations

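Proteases and convertases that release or activate angiogenic factors were listed too. Of 6 tested genes of this list 3 rose with SFN and 3 with DAC+SFN, and none fell. The list's median log2 fold change was 0.34 and 0.51, respectively. The urokinase receptor Plaur rose by 0.57 (adjusted p = 0.00549) and 0.81 (adjusted p = 0.000171), the gelatinase Mmp2 by 0.81 (adjusted p = 0.00476) and 0.99 (adjusted p = 0.000494), and Furin, which cleaves the precursors of VEGF-C and TGF-β, by 0.33 (adjusted p = 0.04996) and 0.55 (adjusted p = 0.00133). Genes of PPAR and fatty acid handling, listed beside Angptl4, did not pass with SFN, and 3 of 5 tested rose with DAC+SFN, namely Cpt1a (0.36, adjusted p = 0.000222), Acadvl (0.35, adjusted p = 0.00230) and Plin2 (0.35, adjusted p = 0.00236). Their median was 0.13 with SFN and 0.35 with DAC+SFN.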
